A study of Mus musculus with 12 samples.

Results

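The complement genes described here are 8 rows of a mouse gene count table, chosen by symbol: C1qa, C1qb, C1qc, C3, C4b, Cfb, Cfp and Serping1. They are 8 of 50643 genes in the table, and all 8 were among the 16694 genes with enough counts to be tested. RNA was measured in natural killer (NK) cells isolated from C57BL/6 mouse spleen by negative selection, a method that removes other cells and leaves behind whatever it fails to remove. There were 3 libraries in each of 4 groups: Mirc11-/- (here knockout) challenged with Listeria, knockout unchallenged, wild-type challenged with Listeria, and wild-type unchallenged. Listeria is an intracellular bacterium. The sources used here give neither dose, route nor duration of the challenge, nor the age of the mice or the cells in which Mirc11 was deleted. Replicates are described as biological, but no label ties a library to its own animal, so p-values measure the spread between these libraries.

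Complement is a cascade of proteins that tags and lyses microbes. C1q, built of the A, B and C chains, starts the classical pathway by binding antibody or microbial surfaces. C4 is cleaved next in that pathway, all pathways meet at C3, factor B and properdin drive the alternative pathway, and C1 inhibitor restrains the early proteases. Most circulating C3, C4 and factor B comes from the liver, while C1q is made mainly by tissue macrophages and properdin by myeloid cells. The deleted Mirc11 locus holds a cluster of microRNA genes, Mir23a, Mir27a and Mir24-2. Their mature sequences are shown because the knockout is defined by deletion of these genes. They are from RefSeq (GRCm38.p6, chromosome 8, plus strand), with the seed (bases 2 to 8 from the 5′ end) in capitals.
miR-23a-3p: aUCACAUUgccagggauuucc
miR-27a-3p: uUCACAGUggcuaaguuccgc
miR-24-3p: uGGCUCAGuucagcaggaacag
No 7-base site complementary to any of these seeds occurred in the longest annotated 3′ UTR of any of the 8 genes. Those UTRs were 43 to 522 bases long, against a median of 1162 bases over tested genes. At least 1 of the 3 sites was present in 40.6% of the 13486 tested genes with a UTR.

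Library totals ran from 17624530 to 23665679 counts, so 1 count was worth 0.0423 to 0.0567 CPM, the count scaled by the library total. NK cell markers were present in every group: Ncr1, which encodes the NK receptor NKp46, averaged 633 CPM in challenged knockout, 839 in unchallenged knockout, 193 in challenged wild-type and 820 in unchallenged wild-type libraries. Mir23a, Mir27a and Mir24-2 had 0 counts in all 12 libraries and check no label. The neighbouring transcript Gm26532 ran from 0.887 to 2.7 CPM in challenged knockout and from 0.113 to 0.498 in unchallenged knockout libraries, against 2.34 to 4.27 in challenged and 2.35 to 4.88 in unchallenged wild-type libraries. The library labelled challenged knockout replicate 3 held 2.7 CPM of it, inside the wild-type range. Gm37352, another transcript read as a check, ran from 29.7 to 47.2 CPM in challenged and 58.2 to 61.4 in unchallenged knockout libraries, against 3.33 to 6.75 in challenged and 3.06 to 6.76 in unchallenged wild-type libraries. At 29.7 CPM, challenged knockout replicate 3 stood with the knockout libraries on that transcript. Gm37352 and Gm26532 were chosen after their values were seen, so neither settles the label of this library. Sex-linked transcripts moved with the groups: Xist ran from 526 to 1030 CPM in challenged knockout and from 0.362 to 1.08 in unchallenged knockout libraries, against at least 1150 CPM in every wild-type library. The sum of 4 Y-linked transcripts ran from 122 to 220 CPM in challenged and 284 to 361 in unchallenged knockout libraries, against 1.12 to 1.69 in challenged wild-type libraries, so every challenged knockout library carried both Xist and Y-linked transcripts. The library labelled unchallenged wild-type replicate 4 also carried both, with a Y-linked sum of 117 CPM, against 2.97 and 3.27 CPM in the other libraries of its group. Genotype and sex therefore cannot be told apart, nor can challenge and sex within knockout, and results are given below also without these 2 libraries.

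All 8 complement transcripts were higher after challenge in both genotypes, and all 8 were lower in challenged knockout than in challenged wild-type libraries. The factor B transcript rose most and the properdin transcript least in each genotype. Without challenge the genotypes differed little, C3 being the only member called. In challenged against unchallenged knockout libraries, 8 of 8 members passed edgeR's quasi-likelihood F test as higher (adjusted p below 0.05), where 15.6% of all tested genes did. In challenged against unchallenged wild-type libraries it was again 8 of 8, where 32.4% of tested genes did. The members were chosen with earlier results of these data known, so these counts and those below are descriptions and do not test the set. The median log2 fold change of the members was 1.54 in knockout and 2.85 in wild-type, beside medians over all tested genes of -0.005 and -0.009. In no member did the challenged libraries of a genotype overlap the unchallenged ones, a separation upwards seen in 20.9% of tested genes in knockout and 30.1% in wild-type. Bulk RNA of this kind cannot tell more cells of a type from more RNA per cell.

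The C1q chains, encoded side by side within 18675 bases of the minus strand of chromosome 4 (GRCm38), behaved much alike. C1qa, the A chain gene (chr4:136895917-136898803), stood at 47.4, 39.2 and 36.7 CPM in challenged and 16.1, 17.6 and 18.6 CPM in unchallenged knockout libraries, against 55.2, 58.2 and 55.6 CPM in challenged and 18, 18.4 and 17.2 CPM in unchallenged wild-type libraries. Every challenged library exceeded every unchallenged one, and the challenged knockout libraries all lay below the challenged wild-type ones. C1qa rose by 1.22 ± 0.10 on the log2 scale in knockout (standard error, edgeR adjusted p = 2.16e-07) and by 1.76 ± 0.10 in wild-type (edgeR adjusted p = 3.77e-10). C1qb, the B chain gene (chr4:136880129-136886187), stood at 68.0, 53.4 and 44.2 CPM in challenged and 18.8, 18.8 and 19.1 CPM in unchallenged knockout libraries, against 69.1, 85.4 and 81.5 CPM in challenged and 15.7, 20.7 and 15.1 CPM in unchallenged wild-type libraries. The highest challenged knockout library nearly reached the lowest challenged wild-type one. Its log2 changes of 1.54 ± 0.15 in knockout (edgeR adjusted p = 5.92e-06) and 2.30 ± 0.15 in wild-type (edgeR adjusted p = 1.45e-08) were larger than those of the other chains. C1qc, the C chain gene (chr4:136889804-136893065), stood at 53.4, 42.7 and 34.1 CPM in challenged and 17.5, 17.5 and 21.6 CPM in unchallenged knockout libraries, against 49.1, 59.8 and 52.9 CPM in challenged and 15.9, 19.3 and 16.8 CPM in unchallenged wild-type libraries. Here the highest challenged knockout library lay inside the challenged wild-type range. C1qc rose by 1.19 ± 0.15 in knockout (edgeR adjusted p = 3.87e-05) and by 1.74 ± 0.15 in wild-type (edgeR adjusted p = 1.34e-07).

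The RefSeq promoter windows (GRCm38.p6, 250 bases before to 50 after the annotated start) held 4 of the 8 members: C1qb, C1qc, C3 and Cfp. The windows of C1qb (chr4:136886151-136886450) and C1qc (chr4:136892865-136893164), both on the minus strand, are shown because these neighbouring genes moved together. Capitals mark GAGGAA or its reverse complement, the core of sites bound by the macrophage factor PU.1.
C1qb promoter: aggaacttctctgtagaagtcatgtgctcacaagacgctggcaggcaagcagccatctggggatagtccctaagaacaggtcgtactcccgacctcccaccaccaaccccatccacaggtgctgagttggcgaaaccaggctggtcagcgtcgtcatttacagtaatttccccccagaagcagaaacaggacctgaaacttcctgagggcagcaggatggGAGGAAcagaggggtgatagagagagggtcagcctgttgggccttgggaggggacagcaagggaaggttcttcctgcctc
C1qc promoter: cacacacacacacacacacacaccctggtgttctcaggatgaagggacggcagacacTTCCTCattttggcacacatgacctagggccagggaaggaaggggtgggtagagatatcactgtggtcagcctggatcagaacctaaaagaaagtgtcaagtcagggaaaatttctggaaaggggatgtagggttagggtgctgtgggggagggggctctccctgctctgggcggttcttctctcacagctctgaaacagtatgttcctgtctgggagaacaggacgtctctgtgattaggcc
The match began 30 bases before the start in C1qb and 193 bases before it in C1qc. The Cfp window, not shown, held 2 such matches, beginning 6 and 22 bases after the start, and the C3 window held none. On both strands GAGGAA was present in 28.1% of 32544 promoter windows of this length, so a match in these genes is a description of the letters only. The interferon-response motif, GAAA followed after any 2 bases by GAAA and found in 3.45% of windows, and the STAT motif TTCNNNGAA, found in 8.33%, were in none of the 4 members' windows.

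**Figure D1:**
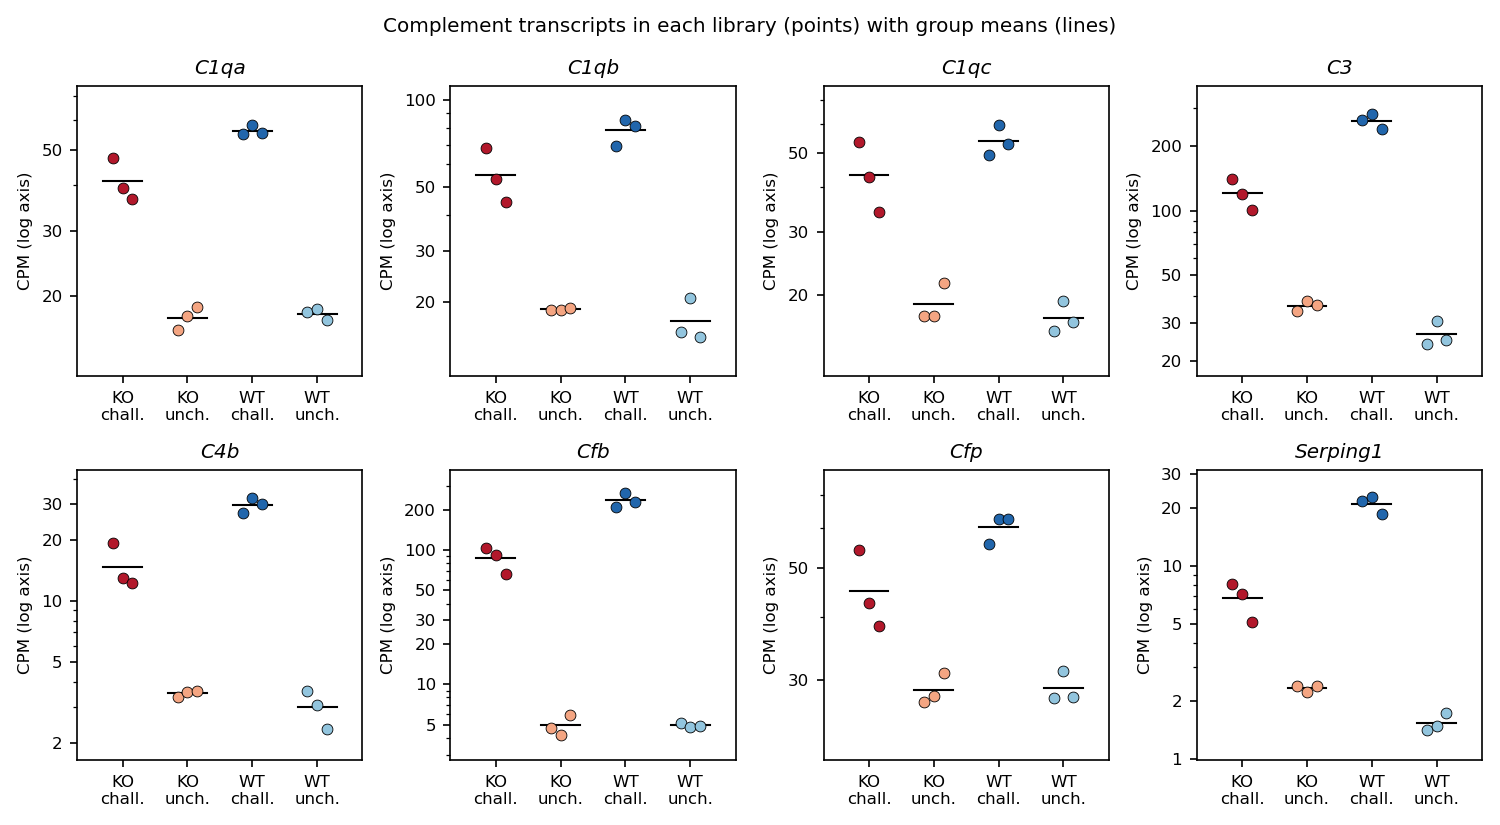
CPM of each complement transcript (log axis) in the 12 libraries, by group; points are libraries in order of replicate number and lines are group means (n = 3). For every gene both challenged groups lie above both unchallenged groups, and for all but C1qc the challenged knockout points lie below the challenged wild-type points.

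C4b, which encodes the C4 protein cleaved after C1 is activated (chr17:34728380-34743882, minus strand), stood at 19.2, 12.9 and 12.2 CPM in challenged and 3.35, 3.57 and 3.61 CPM in unchallenged knockout libraries, against 27.2, 32.3 and 30 CPM in challenged and 3.6, 3.07 and 2.34 CPM in unchallenged wild-type libraries. The challenged genotypes did not overlap, while the unchallenged ones did. Its log2 change with challenge was 2.06 ± 0.18 in knockout (edgeR adjusted p = 8.42e-07) and 3.42 ± 0.18 in wild-type (edgeR adjusted p = 3.55e-10). C4a, a near copy of C4b known in mice as the sex-limited protein gene, ran from 1.5 to 3.11 CPM over all libraries and did not pass (log2 -0.37 ± 0.23 in knockout, edgeR adjusted p = 0.255, and -0.21 ± 0.23 in wild-type, edgeR adjusted p = 0.45). The sources used here do not say how reads were split between these copies, so each alone is uncertain. Summed, C4b and C4a measured 16.7 ± 4.05 CPM in challenged and 5.97 ± 0.107 in unchallenged knockout libraries, against 31.7 ± 2.94 in challenged and 5.36 ± 1.26 in unchallenged wild-type libraries (SD, n = 3 each).

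C3, the protein on which all pathways converge (chr17:57203970-57228136, minus strand), stood at 141, 120 and 101 CPM in challenged and 34.1, 38.2 and 36.4 CPM in unchallenged knockout libraries, against 265, 280 and 241 CPM in challenged and 24.1, 30.8 and 25.1 CPM in unchallenged wild-type libraries. The order of the genotypes differed by treatment: knockout libraries were the higher ones without challenge and the lower ones after it, with no overlap either time. The log2 change was 1.72 ± 0.12 in knockout (edgeR adjusted p = 9.83e-08) and 3.40 ± 0.13 in wild-type (edgeR adjusted p = 1.43e-11), or 3.3-fold and 10.6-fold. Its promoter window (chr17:57228087-57228386, minus strand) is shown for the match in capitals, TTGCGAAA, to the C/EBP-like motif TTGCNNAA.
C3 promoter: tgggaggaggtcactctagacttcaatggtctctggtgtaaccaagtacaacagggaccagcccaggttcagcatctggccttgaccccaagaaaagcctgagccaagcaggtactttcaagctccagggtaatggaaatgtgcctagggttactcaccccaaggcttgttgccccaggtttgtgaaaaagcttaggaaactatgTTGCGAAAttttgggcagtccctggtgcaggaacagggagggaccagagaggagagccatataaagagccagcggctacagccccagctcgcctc
The match began 45 bases before the start, and 10.8% of all windows hold this motif on either strand.

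The alternative pathway genes held both extremes. Cfb, which encodes factor B, the protease of the alternative C3 convertase (chr17:34856374-34862518, minus strand), stood at 103, 91.8 and 66.0 CPM in challenged and 4.71, 4.21 and 5.94 CPM in unchallenged knockout libraries, against 208, 267 and 227 CPM in challenged and 5.13, 4.81 and 4.93 CPM in unchallenged wild-type libraries. The unchallenged genotypes could not be separated, and the challenged ones did not overlap. The log2 change of 4.12 ± 0.18 in knockout (edgeR adjusted p = 6.5e-09) and of 5.66 ± 0.19 in wild-type (edgeR adjusted p = 4.56e-11) corresponds to 17.4-fold and 50.7-fold. Only 0.533% of tested genes had a log2 change at least as high in knockout, and 0.593% in wild-type. Gm20547, a transcript annotated over 79.5% of the Cfb exon bases, held at most 19 counts in a library and 0 in every challenged one. Cfp, which encodes properdin, the stabiliser of that convertase (chrX:20925454-20931555, minus strand), stood at 54.3, 42.7 and 38.5 CPM in challenged and 27.2, 28 and 31.1 CPM in unchallenged knockout libraries, against 56.0, 62.6 and 62.5 CPM in challenged and 27.7, 31.3 and 27.8 CPM in unchallenged wild-type libraries. The challenged genotypes came close to each other but did not overlap. Cfp rose by 0.64 ± 0.11 in knockout (edgeR adjusted p = 0.000518) and by 1.17 ± 0.11 in wild-type (edgeR adjusted p = 2.34e-07), the smallest changes of the 8. Cfp lies on the X chromosome, and the unchallenged groups, which differed in sex-linked transcripts, had 28.8 ± 2.07 CPM in knockout and 28.9 ± 2.04 in wild-type libraries (SD, n = 3 each). Genotype and sex cannot be told apart in these groups, and the part of sex in the Cfp level was not tested.

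Serping1, which encodes C1 inhibitor, the serpin that blocks C1r and C1s (chr2:84765387-84775444, minus strand), stood at 8.07, 7.17 and 5.11 CPM in challenged and 2.38, 2.22 and 2.38 CPM in unchallenged knockout libraries, against 21.6, 22.7 and 18.5 CPM in challenged and 1.42, 1.48 and 1.73 CPM in unchallenged wild-type libraries. As with C3, knockout libraries were the higher ones without challenge and the lower ones after it. It rose by 1.54 ± 0.17 in knockout (edgeR adjusted p = 9.18e-06) and by 3.86 ± 0.17 in wild-type (edgeR adjusted p = 5.02e-11), or 2.9-fold and 14.5-fold.

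Between the genotypes after challenge, all 8 members were called lower in knockout, where 25.9% of tested genes were. The median log2 difference was -0.85, beside -0.002 over all tested genes. Serping1 fell by 1.72 ± 0.14 (edgeR adjusted p = 1.47e-07), Cfb by 1.52 ± 0.14 (edgeR adjusted p = 2.38e-06), C3 by 1.22 ± 0.11 (edgeR adjusted p = 6.86e-07) and C4b by 1.10 ± 0.15 (edgeR adjusted p = 2.93e-05). These are 3.29-fold, 2.88-fold, 2.32-fold and 2.15-fold lower levels in challenged knockout libraries. The other 4 differed less, C1qb by -0.60 ± 0.14, C1qa by -0.55 ± 0.09, Cfp by -0.51 ± 0.11 and C1qc by -0.41 ± 0.14 (edgeR adjusted p = 0.00307, 0.000133, 0.00115 and 0.0263). The libraries of 7 members did not overlap, a separation downwards seen in 22.3% of tested genes, and those of C1qc did. The C1qc call was lost in 8 of 22 alternatives, among them column totals in place of TMM scaling (adjusted p = 0.0796) and the fits without challenged wild-type replicate 2, challenged knockout replicate 2 or challenged knockout replicate 3 (adjusted p = 0.104, 0.106 and 0.111). Over all genes, column totals gave 4870 higher and 3361 lower calls in this comparison, against 3792 and 4332 with TMM.

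Without challenge, 1 of the 8 was called, in knockout higher, where 6.64% of tested genes were called higher and 11.7% either way. C3 averaged 36.2 ± 2.05 CPM in knockout and 26.7 ± 3.64 in wild-type libraries (SD, n = 3 each), a log2 difference of 0.46 ± 0.12 (edgeR adjusted p = 0.0229). That call was lost without unchallenged wild-type replicate 2 or 4, or without unchallenged knockout replicate 3 or 4 (adjusted p = 0.104, 0.0883, 0.0928 and 0.0693). Serping1 averaged 2.33 ± 0.0945 CPM in knockout and 1.54 ± 0.163 in wild-type libraries and did not pass (log2 0.60 ± 0.21, edgeR adjusted p = 0.0801), although its libraries did not overlap either. It passed without challenged knockout replicate 1 or 3 (adjusted p = 0.0484 and 0.0296). A separation upwards was seen in 14.4% of tested genes. The other 6 overlapped between the genotypes. Their 95% intervals bound the log2 difference between -0.22 and 0.20 for C1qa, -0.23 and 0.25 for Cfp, -0.18 and 0.50 for C1qb, -0.18 and 0.47 for C1qc, -0.20 and 0.70 for C4b, and -0.46 and 0.49 for Cfb.

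The difference between the challenge responses, tested as an interaction, was negative for all 8 and called for 7, where 18.5% of tested genes were called lower. Serping1 had the largest difference, -2.32 ± 0.25 on the log2 scale (95% interval -2.86 to -1.78, edgeR adjusted p = 4.93e-06). C3 followed at -1.68 ± 0.17 (-2.03 to -1.32, edgeR adjusted p = 3.13e-06), then Cfb at -1.54 ± 0.26 (-2.11 to -0.97, edgeR adjusted p = 0.000593) and C4b at -1.35 ± 0.26 (-1.92 to -0.79, edgeR adjusted p = 0.00092). C1qb (-0.76 ± 0.21), C1qa (-0.54 ± 0.13) and Cfp (-0.52 ± 0.16) passed with smaller differences (edgeR adjusted p = 0.0129, 0.00558 and 0.017), and C1qc did not pass (-0.55 ± 0.21, adjusted p = 0.0526). The median over the 8 was -1.06, beside 0.004 over all tested genes. Column totals gave 3833 higher and 2380 lower calls over all genes here, against 2791 and 3085 with TMM. Without challenged knockout replicate 3 and unchallenged wild-type replicate 4 together, 5 members kept the call, and C1qb and Cfp lost it (adjusted p = 0.0568 and 0.0921). This contrast shares all its libraries with the comparisons above and is no separate evidence.

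**Figure D2:**
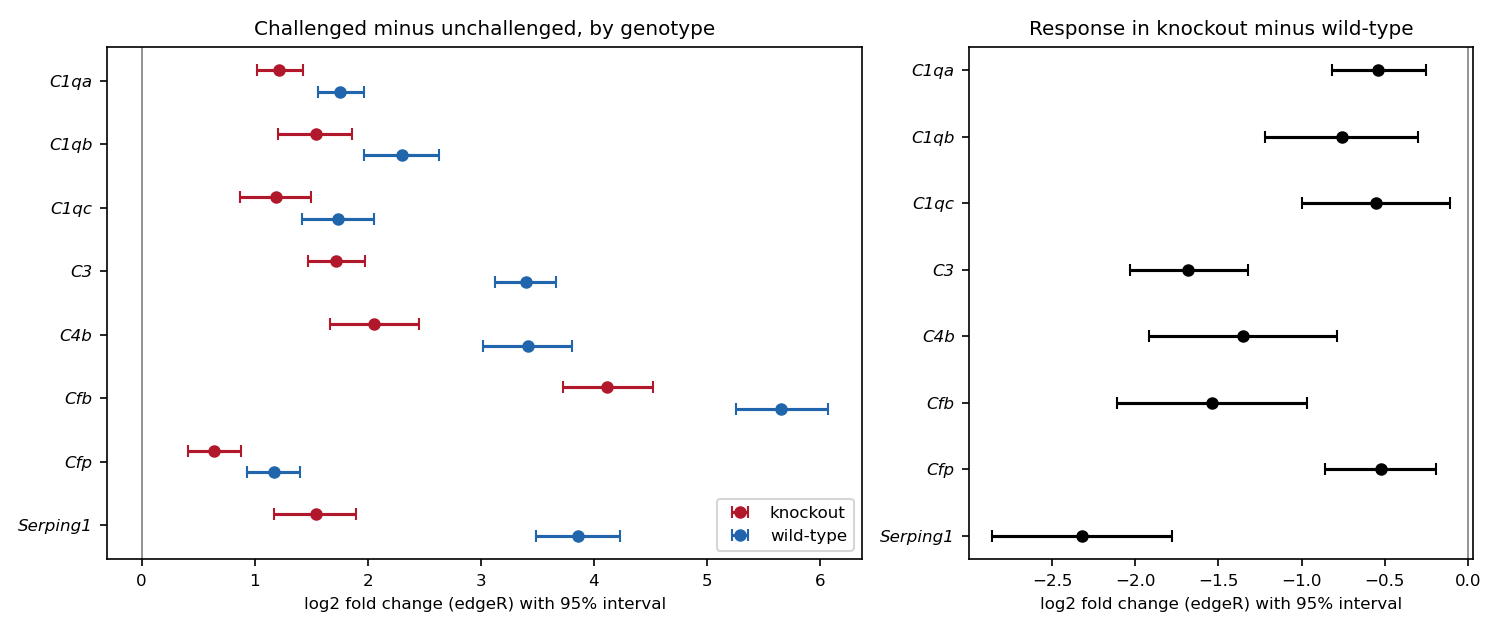
Left, log2 fold change of challenged over unchallenged libraries in knockout (red) and wild-type (blue); right, the knockout response minus the wild-type response; bars are 95% intervals from edgeR (3 libraries a group). Every response is above 0 and every knockout response is the smaller one, with the widest gap for Serping1 (-2.32) and gaps between -0.76 and -0.52 for the C1q chains and Cfp.

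Expressed as the rise in mean CPM, the knockout response was a different share of the wild-type response for different members. Serping1 gained 4.46 CPM in knockout and 19.4 in wild-type libraries, a share of 23.0%. Cfb and C3 gained 81.9 and 84.3 CPM in knockout, each 35.8% of the gains of 229 and 236 CPM in wild-type. C4b reached 42.0% and Cfp 52.2%. The C1q chains had the highest shares, 59.1% for C1qb, 61.3% for C1qa and 66.9% for C1qc. These shares are descriptions without a test of one member against another.

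Within the challenged groups the members moved together from library to library. All 8 were highest in replicate 1 and lowest in replicate 3 of the challenged knockout group. In challenged wild-type all 8 were highest in replicate 2. The unchallenged groups were less uniform. In unchallenged knockout 6 of 8 were highest in replicate 4 and 6 were lowest in replicate 2. In unchallenged wild-type 5 were highest in replicate 3 and 4 were lowest in replicate 2. The highest challenged knockout library exceeded the lowest by 1.29 times for C1qa and 1.58 times for C4b and Serping1, the ends of the range, whereas in challenged wild-type the ratio was 1.05 to 1.28. Summed CPM of 19 macrophage markers followed the same order in challenged knockout, 1960, 1850 and 1560 in replicates 1, 2 and 3. It was also highest in replicate 2 of challenged wild-type (2270, 2570 and 2250). Dendritic cell markers (767, 696 and 608) and stromal and endothelial markers (172, 164 and 161) shared the challenged knockout order. The other lists did not, NK cell markers running 4860, 5410 and 5540. In challenged wild-type, monocyte, neutrophil, B cell, erythroid and hepatocyte markers were also highest in replicate 2. The share of all genes with these orders was not computed. The part of these markers in the members' results was not tested.

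The 3 C1q transcripts together measured 140 ± 27.3 CPM in challenged and 55.3 ± 3.67 in unchallenged knockout libraries, against 189 ± 15 in challenged and 52.4 ± 5.23 in unchallenged wild-type libraries (SD, n = 3 each). Per kilobase of exon, C1qb made up 44.9 ± 1.31% of the 3 chains in challenged and 39.6 ± 1.87% in unchallenged knockout libraries, against 46.8 ± 1.81% in challenged and 37.5 ± 2.90% in unchallenged wild-type libraries. All 6 challenged libraries held 43.5% or more of C1qb, and all 6 unchallenged ones 41.3% or less. The share of C1qc was 19.9 ± 0.839% in challenged and 22.2 ± 1.57% in unchallenged knockout libraries, against 18.1 ± 0.569% in challenged and 21.4 ± 0.751% in unchallenged wild-type libraries. C1qa took 35.3 ± 2.14% in challenged and 38.2 ± 1.07% in unchallenged knockout, and 35.2 ± 1.95% in challenged and 41.1 ± 2.89% in unchallenged wild-type libraries. These shares carry no test.

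**Figure D3:**
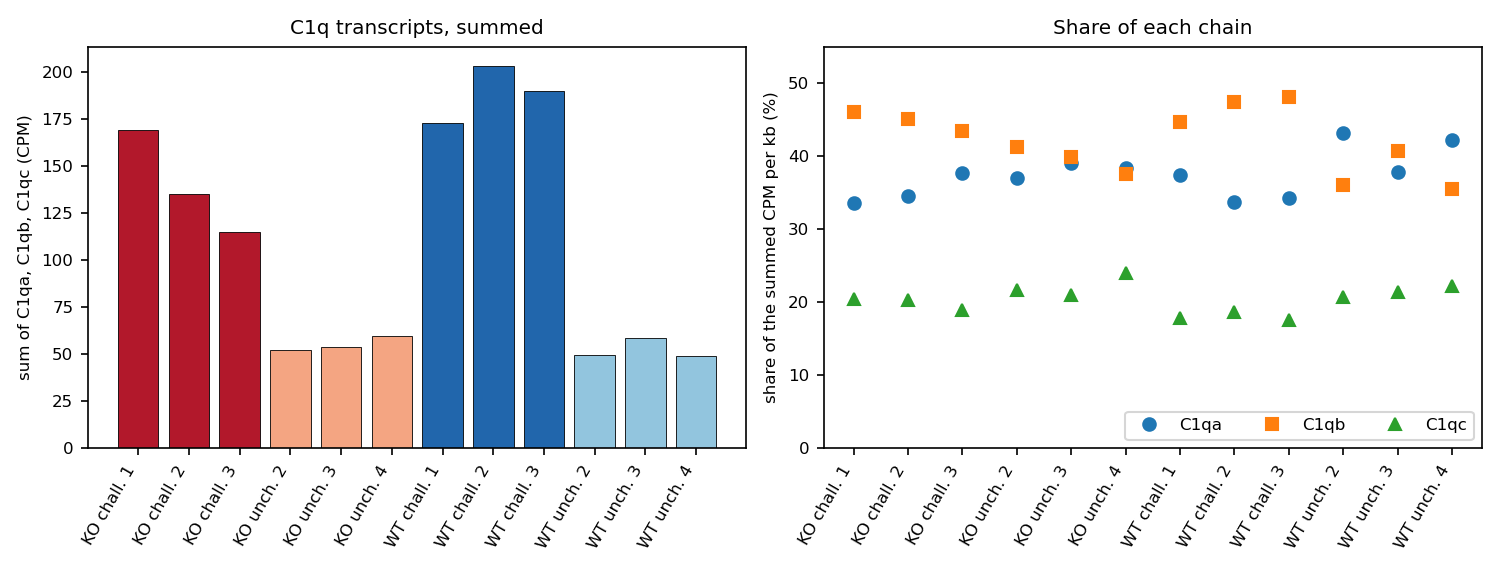
Left, summed CPM of the 3 C1q transcripts in each library; right, the share of each chain in the summed CPM per kb (%), by library. The sums of challenged knockout libraries run from 115 to 169 CPM and those of challenged wild-type libraries from 173 to 203 CPM, and the C1qb share is the highest of the 3 in every challenged library.

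Levels between genes were compared as CPM per kilobase of annotated exon (GENCODE M21, GRCm38). C1qb led the order in challenged knockout libraries at 50.8 ± 11, ahead of C1qa at 39.5 ± 5.38 and Cfb at 30.8 ± 6.70 CPM per kb, each overlapping its neighbour. Unchallenged knockout libraries had C1qb, C1qa and Cfp at 17.4 ± 0.168, 16.8 ± 1.21 and 16.6 ± 1.19 CPM per kb, not separable from each other, and Cfb at 1.75 ± 0.316. Challenged wild-type libraries had Cfb first at 82.8 ± 10.7 CPM per kb, overlapping C1qb at 72.3 ± 7.82, and C1qa (54.2 ± 1.56) overlapping C3 (51.0 ± 3.83). Unchallenged wild-type libraries had C1qa, Cfp and C1qb at 17.2 ± 0.557, 16.6 ± 1.17 and 15.8 ± 2.84 CPM per kb, all overlapping, and Cfb sixth of 8 at 1.75 ± 0.0573. Serping1 and C4b held the last places in every group, at no more than 9.01 ± 0.933 and 5.24 ± 0.457 CPM per kb on average (SD, n = 3 each). The place of C1qc depends on the length used: at 1203 bases for its longest transcript in place of 1931 bases of exon, it moved to the third place in challenged knockout libraries.

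Markers of macrophages, the usual source of C1q, mostly moved in the direction of the members. Of 19 listed, all tested, 12 were higher and 0 lower in challenged against unchallenged knockout, and 15 were higher and 1 lower in challenged against unchallenged wild-type libraries. After challenge, 2 were higher and 11 lower in knockout than in wild-type, and without challenge 8 were higher and 0 lower. Their summed CPM ran from 1560 to 1960 in challenged and 1280 to 1330 in unchallenged knockout libraries, against 2250 to 2570 in challenged and 953 to 1050 in unchallenged wild-type libraries. The defining markers did not all move this way: Csf1r, the macrophage growth factor receptor gene, averaged 89.0 CPM in challenged and 99.2 in unchallenged knockout, and 60.9 CPM in challenged and 70.8 in unchallenged wild-type libraries. Cd68, a lysosomal protein gene of macrophages, averaged 33.3 CPM in challenged and 21.4 CPM in unchallenged knockout libraries, and 56.9 CPM in challenged and 18.8 CPM in unchallenged wild-type libraries. Adgre1, which encodes F4/80, averaged 23.7 CPM in challenged and 19.2 CPM in unchallenged knockout libraries, and 21.2 CPM in challenged and 14.3 CPM in unchallenged wild-type libraries. The 11 neutrophil markers also moved, with summed means of 1040 CPM in challenged and 492 in unchallenged knockout, against 1650 in challenged and 73.6 in unchallenged wild-type libraries. Not every myeloid list did so. Of 10 monocyte markers, 4 were higher and 4 lower with challenge in each genotype, and 6 were higher and 2 lower in challenged knockout than in challenged wild-type. Of 9 dendritic cell markers, 1 was higher and 3 lower with challenge in knockout, and 4 higher and 3 lower in wild-type. NK cell markers summed to means of 5270 and 6950 CPM in challenged and unchallenged knockout, and 3610 and 6880 CPM in challenged and unchallenged wild-type libraries. Of 12 stromal and endothelial markers, 2 were higher and 0 lower in challenged against unchallenged knockout, and 10 were higher and 0 lower in challenged against unchallenged wild-type libraries. After challenge, 1 was higher and 8 lower in knockout than in wild-type. The interaction was called negative for 7 and positive for 0 (median log2 difference -1.08). Their summed CPM ran from 161 to 172 in challenged and 144 to 156 in unchallenged knockout libraries, against 240 to 244 in challenged and 167 to 189 in unchallenged wild-type libraries. Pecam1, an endothelial adhesion gene that leukocytes also express, made up most of it, at 123 CPM in challenged and 109 in unchallenged knockout, against 180 in challenged and 155 in unchallenged wild-type libraries. The endothelial cadherin gene Cdh5 and the collagen gene Col1a1 averaged at most 5.96 and 2.8 CPM in any group. The 8 erythroid markers moved otherwise, with summed means of 23300 CPM in challenged and 38900 in unchallenged knockout, against 2020 in challenged and 12500 in unchallenged wild-type libraries. The interaction was called positive for 7 of 8 erythroid, 8 of 8 T cell and 6 of 6 platelet markers. For NK cell markers it was called positive for 8 of 10 and negative for 1. It was called negative for 11 of 11 neutrophil markers (median log2 difference -3.15). Of 19 macrophage markers, 10 were called negative and 1 positive (median log2 difference -0.67). Of 10 monocyte markers, 3 were called negative and 4 positive (median 0.16), and of 9 dendritic cell markers 3 negative and 3 positive (median -0.50). The part of these cell markers in the members' differences was not tested. Of 8 hepatocyte markers the defining Alb, Apoa1 and Ttr were at or near 0. All those listed other than the most abundant together held at most 0.203 CPM in any library. Only 1 gene was tested. That gene, Trf for transferrin, averaged 44.5 CPM in challenged and 57.4 in unchallenged knockout, against 23.3 in challenged and 46.0 in unchallenged wild-type libraries, and so was lower after challenge in both genotypes (edgeR adjusted p = 0.0133 in knockout and 3.41e-06 in wild-type).

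Set against the macrophage sum of the same library, the members fell into those whose ratio differed little between the challenged genotypes and those whose ratio did. C1qa stood at 2.30 ± 0.161% of that sum in challenged and 1.35 ± 0.0792% in unchallenged knockout libraries, against 2.39 ± 0.109% in challenged and 1.77 ± 0.0361% in unchallenged wild-type libraries (SD, n = 3 each). Cfp stayed between 2.22 ± 0.118% and 2.86 ± 0.159% in all groups. C3 stood at 6.72 ± 0.438% in challenged knockout and 11.1 ± 0.518% in challenged wild-type libraries, and Cfb at 4.82 ± 0.523% in challenged knockout and 9.88 ± 0.627% in challenged wild-type libraries. C4b stood at 0.821 ± 0.145% in challenged knockout and 1.26 ± 0.0665% in challenged wild-type libraries. Serping1 stood at 0.376 ± 0.0431% in challenged knockout and 0.886 ± 0.0655% in challenged wild-type libraries. For C3, C4b, Cfb and Serping1 the challenged genotypes did not overlap on this ratio, and for C1qa, C1qb, C1qc and Cfp they did. The share of all tested genes that separate on this ratio was not computed, so the split is a description only. In challenged wild-type libraries Ctsb, Mpeg1, Lyz2 and Hmox1 led that sum, at 625, 454, 380 and 248 CPM of 2360 on average. Each itself rose with challenge in wild-type (log2 1.41, 2.40, 1.03 and 2.21). Csf1r did not pass there (log2 -0.11), and Cd163, the 1 marker called lower, changed by -0.86. The ratio is thus to this sum and not to macrophage number. It describes these libraries and was given no test.

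**Figure D4:**
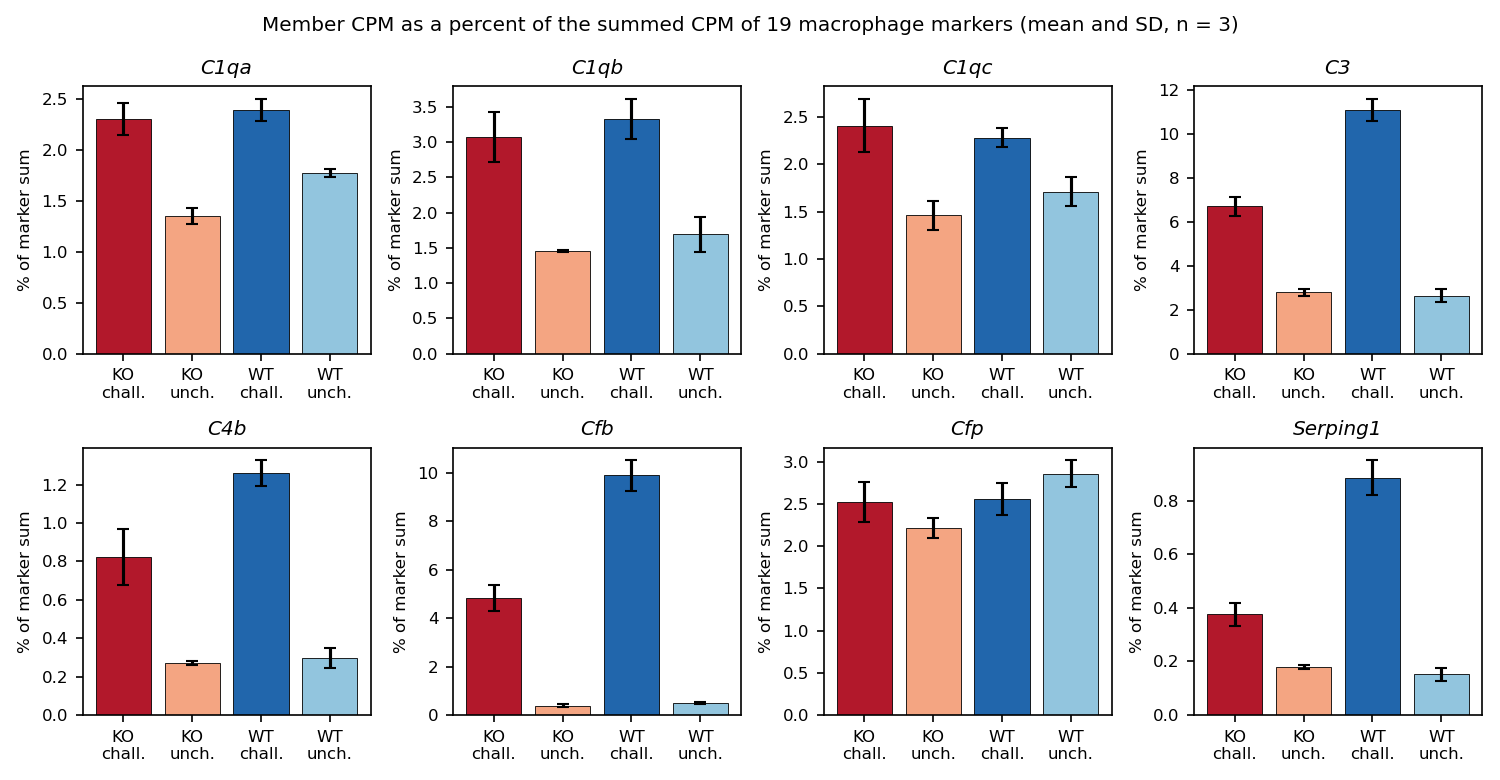
CPM of each complement transcript as a percent of the summed CPM of 19 macrophage markers in the same library (bars, mean; error bars, SD; n = 3). C3, C4b, Cfb and Serping1 stand lower in challenged knockout than in challenged wild-type libraries, while the C1q chains and Cfp overlap between them.

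The wider complement system, 61 listed genes including the 8, had 36 tested members, which did not move as one. In challenged against unchallenged knockout libraries 17 were higher and 6 lower, where 15.6% and 11.5% of all tested genes were. In challenged against unchallenged wild-type libraries 20 were higher and 10 lower, where 32.4% and 30.9% of all tested genes were. Leaving out the 8, 28 tested genes remained, with 9 higher and 6 lower in knockout (median log2 change 0.11) and 12 higher and 10 lower in wild-type (median -0.02). The knockout median stayed at 0.11 with Hc, which had 0 counts in a group, at its bound. After challenge 11 of these 28 were higher and 8 lower in knockout than in wild-type, where 22.7% and 25.9% of all tested genes were. Without challenge 6 were higher and 2 lower, where 6.64% and 5.07% were. The difference between the responses, knockout minus wild-type, was called positive for 9 and negative for 8, where 16.7% and 18.5% were. Of the 25 listed genes that were not tested, Cfd, the gene for the protease that cleaves factor B, had 0 counts in all 12 libraries.

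Early proteases rose with the C1q chains. C1s1, which encodes the C1s protease, averaged 2.58 ± 0.788 CPM in challenged and 1.16 ± 0.333 in unchallenged knockout, against 8.96 ± 0.539 in challenged and 0.761 ± 0.191 in unchallenged wild-type libraries. Its log2 change was 1.11 ± 0.25 in knockout (edgeR adjusted p = 0.00383) and 3.65 ± 0.25 in wild-type (edgeR adjusted p = 5.3e-09). C2, whose product is the classical pathway partner of C4, rose by 1.44 ± 0.21 in knockout and 2.33 ± 0.20 in wild-type, and the C1r-like protease gene C1rl by 1.85 ± 0.25 and 3.82 ± 0.29 (edgeR adjusted p from 1.7e-08 to 0.000107). Among 13 tested genes of the recognition and early protease role, the members included, 8 were higher and 1 lower in knockout. In wild-type 9 were higher and 2 lower. Leaving the members out, 4 of 9 were higher and 1 lower in knockout, where 15.6% and 11.5% of all tested genes were. In wild-type 5 of these 9 were higher and 2 lower, where 32.4% and 30.9% of all tested genes were. Of 3 tested terminal components, C6 rose to 6.14 ± 0.777 CPM in challenged knockout, against 3.92 ± 0.321 in unchallenged knockout, and to 4.41 ± 0.404 CPM in challenged wild-type, against 2.47 ± 0.206 in unchallenged wild-type libraries (edgeR adjusted p = 0.00366 in knockout and 7.08e-05 in wild-type). C8g did not pass in either genotype (edgeR adjusted p = 0.935 in knockout and 0.955 in wild-type). Hc, the C5 gene, stayed low: 0.284 ± 0.0836 CPM in challenged knockout, at least 5.67-fold above a floor of 3 counts over the unchallenged knockout group, which had none, and 0.734 ± 0.165 CPM in challenged against 0.0898 ± 0.114 in unchallenged wild-type libraries.

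Regulators and receptors did not move as one. None of 5 tested membrane regulators passed in knockout after challenge, and 4 of 5 fell in wild-type. Cd55, the gene for decay-accelerating factor, averaged 124 ± 17.2 CPM in challenged and 112 ± 9.36 in unchallenged knockout, against 87.4 ± 4.70 in challenged and 155 ± 10.1 in unchallenged wild-type libraries. In wild-type it changed by -0.72 ± 0.09 (edgeR adjusted p = 7.05e-06), Cd46 by -1.55 ± 0.17 and Cd59b, which restrains the membrane attack complex, by -2.20 ± 0.19 (edgeR adjusted p = 1.15e-06 and 5.91e-08). The difference between responses was called for these 3, at 0.86 ± 0.13, 1.19 ± 0.23 and 1.96 ± 0.25 (edgeR adjusted p = 0.000133, 0.000994 and 2.27e-05). Clusterin, from Clu, was lower in unchallenged knockout at 28.7 ± 1.85 CPM than in unchallenged wild-type at 73.1 ± 12.4 CPM (log2 -1.33 ± 0.13, edgeR adjusted p = 5.78e-06). Among 9 tested receptors, 3 were higher and 4 lower in knockout and 5 higher and 3 lower in wild-type after challenge. C5ar1, the C5a receptor gene of myeloid cells, rose by 1.01 ± 0.17 in knockout and 3.56 ± 0.20 in wild-type, Calr, whose product binds C1q, by 0.56 ± 0.06 and 1.65 ± 0.06, while Itgax, a subunit of complement receptor 4 that NK cells also carry, changed by -0.74 ± 0.07 and -2.24 ± 0.08 (edgeR adjusted p from 2.67e-12 to 0.000487).

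**Figure D5:**
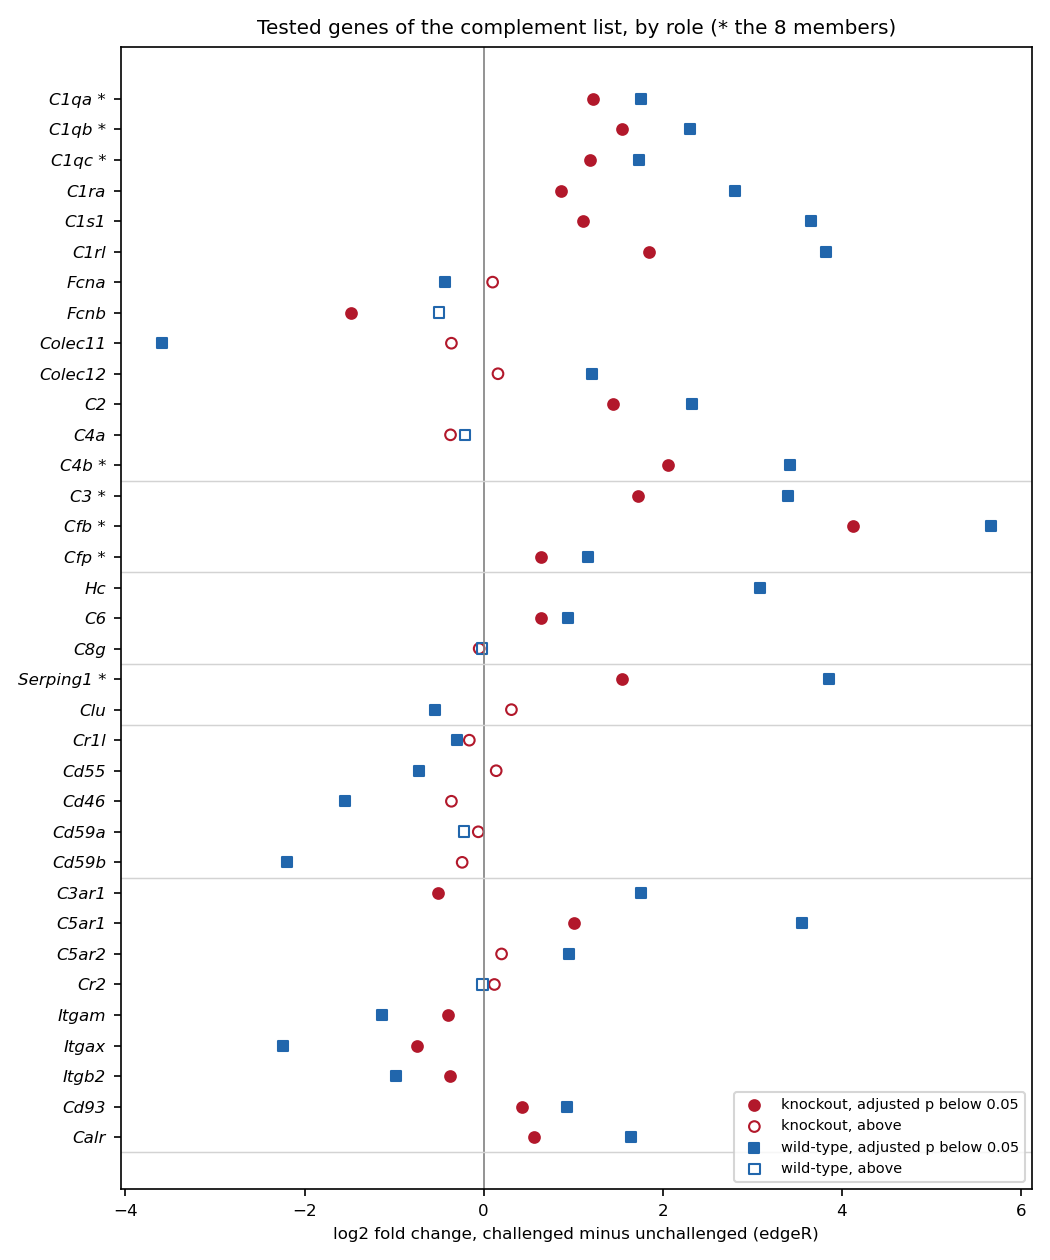
Log2 fold change of challenged over unchallenged libraries (edgeR) for 35 of the 36 tested genes of the complement list, grouped by role from early components (top) to receptors (bottom), with asterisks on the 8 members; circles are knockout, squares wild-type, filled where adjusted p is below 0.05. Hc has no knockout point because its unchallenged knockout libraries had 0 counts, and the 8 members lie right of 0 in both genotypes while the membrane regulators lie left of 0 in wild-type.

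The genes most like each member over the 12 libraries were found among 11195 tested genes with a mean of at least 5 CPM, by the root mean square difference of centred log2 CPM. C1qb was nearest to Cd5l, a gene of splenic macrophages, at 0.0757, which averaged 35.0 CPM in challenged and 11.7 in unchallenged knockout, against 46.0 in challenged and 10.4 in unchallenged wild-type libraries. It was followed by Hmox1 (0.16), which encodes the haem-degrading enzyme, and Sdc3 (0.17). C3 was nearest to Slamf8 (0.0917), Ly6c1 (0.13) and Pla2g7 (0.14), and Cfb to Ly6i (0.17), Cd14 (0.23), the gene of the lipopolysaccharide co-receptor, and Iigp1 (0.24), an interferon-inducible GTPase gene. C4b was nearest to Oas3 (0.18), Slc15a3 (0.21) and Tgm2 (0.21), and Serping1 to Cttnbp2nl (0.18), Ifitm3 (0.20) and Basp1 (0.20). C1qa was nearest to Sik1 (0.12) and Exo1 (0.13), C1qc to Msrb1 (0.16), Dtx4 (0.16) and Lst1 (0.17), and Cfp to 2410006H16Rik (0.0492), Ighv1-19 (0.0834) and Mrpl12 (0.0893). Among the members themselves, C1qa and C1qc were closest (0.12), then C3 and C4b (0.20) and C3 and Serping1 (0.22), and Cfb and Cfp were farthest apart (2.02). All these distances share the 12 libraries and their group structure, and are descriptions.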

How the data were processed

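RNA was measured as polyA libraries (Trizol RNA, Illumina TruSeq RNA, per the labels' protocols) of 12 spleen NK cell samples. Per the submitters' processing notes, the tools were RSEM 1.3.0, Bowtie2 2.2.8, Trim Galore 0.4.1 and bcl2fastq, with GRCm38. The authors deposited raw whole-number counts for each gene, which they had not normalized. The sources used here do not say how RSEM's estimates became whole numbers, nor give an annotation release or strand setting. All 12 value columns were used, and every row named a gene. Replicate numbers are those of the short code in each title. A second numbering differs for the unchallenged groups.

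A single model of all 4 groups was fitted to the whole table by edgeR 4.0.16 (R 4.3.3): TMM, filterByExpr, robust quasi-likelihood F test, Benjamini-Hochberg over 16694 genes within each of 5 contrasts, calls at adjusted p below 0.05. Standard errors come from the log2 fold change and its F statistic. The fit was tested on simulated data. CPM uses column totals. Alternatives were 22 other fits, DESeq2 1.42.0 among them, of which 12 left out a library each. Named genes were all 8 members, up to 3 genes per role of the complement list by p in the wild-type challenge contrast, the 3 nearest genes to each member, and the first 3 of each marker list described. C4a, Cfd, Trf, Gm26532, Gm37352 and Gm20547 were chosen after their values were seen. A gene of the complement list and a gene near C1qa that the rule names are not reported here. The members and lists were chosen with earlier results of these data known. Columns of 1 group were compared for duplicates, and their squared differences were 3.4 to 27.1 times counting noise. Intervals cover counting error and library spread only, since reads carry no molecular identifiers. Residuals of same-numbered libraries had correlations from -0.317 to 0.249 over both numberings, so numbers were not used to pair libraries.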

Additional observations from a re-analysis of the deposited data

Results flagged for a closer look

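The challenge response of 7 complement transcripts differed between the genotypes by the interaction test of edgeR, each smaller in knockout. The knockout response minus the wild-type response was -2.32 for Serping1 (edgeR adjusted p = 4.93e-06), -1.68 for C3 (edgeR adjusted p = 3.13e-06), -1.54 for Cfb (edgeR adjusted p = 0.000593) and -1.35 for C4b (edgeR adjusted p = 0.00092) on the log2 scale. It was -0.76 for C1qb, -0.54 for C1qa and -0.52 for Cfp (edgeR adjusted p = 0.0129, 0.00558 and 0.017). Sex-linked transcripts differ between the same groups. So do markers of NK cells, macrophages, neutrophils, stromal and endothelial cells, erythroid cells, T cells and platelets. The part of all these transcripts in the members' differences was not tested.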

How the results depend on the processing

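Over the 22 alternatives, all 8 members kept their calls and direction in both challenge contrasts. Members called lower in challenged knockout than in challenged wild-type numbered 7 or 8, and members called in the interaction 5 to 8. The number called between the unchallenged genotypes was 1. It was 0 to 2 when 1 library was left out, and 2 without challenged knockout replicate 3 and unchallenged wild-type replicate 4 together (Serping1 adjusted p = 0.0334 by edgeR). A total of 13 values reversed, all of them differences near 0 between the unchallenged genotypes. With 1 library left out, these ran from -0.061 to 0.042 for C1qa, from -0.14 to 0.13 for Cfb and from -0.05 to 0.085 for Cfp. C1qa stood at 0.0017 under upper-quartile scaling, 0.0014 without a low-count filter, 0.0024 with only the groups compared, 0.024 without unchallenged wild-type replicate 3, 0.042 without unchallenged knockout replicate 2 and 0.0033 without challenged knockout replicate 2. Cfb stood at -0.0021 under column totals and -0.14 without unchallenged knockout replicate 4. Cfp stood at -0.007 under column totals, -0.02 without unchallenged wild-type replicate 2, -0.013 without unchallenged wild-type replicate 4, -0.05 without unchallenged knockout replicate 4 and -0.013 without both libraries in doubt. Besides the C1qc losses given above, that gene passed in the interaction in 4 alternatives, by DESeq2 among them (adjusted p = 0.0238). The cause of these changes was not tested. With the replicate number as a block, in either numbering, the members called stayed at 8, 8, 1, 8 and 7 in the 5 contrasts. In the wild-type challenge contrast the median log2 change of all genes was -0.116 under upper-quartile scaling and -0.112 under column totals, against -0.009 with TMM. In the interaction it was 0.117 under column totals, against 0.004 with TMM. In the knockout challenge contrast upper-quartile scaling gave 2263 higher and 2583 lower calls over all genes, against 2596 and 1915 with TMM. Per-kilobase levels of C1qc and Serping1 moved with the length of the longest transcript, that of C1qc to 36.1 in challenged and 15.7 in unchallenged knockout, against 44.8 in challenged and 14.4 CPM per kb in unchallenged wild-type libraries.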
